A study of Mus musculus with 4 samples.

Results

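Interferon-stimulated and antigen presentation genes were described in the livers of DDI2-KO mice and their WT littermates, as 38 genes of 48709 in the count files, chosen as a named list by gene symbol. They fall into 28 interferon-stimulated genes (ISGs), 6 genes of MHC class I and its peptide loading, and 4 genes of MHC class II, and the groups are reported apart. The libraries were 2 from WT and 2 from DDI2-KO mice, all untreated adult C57BL/6 animals. WT mice carried the floxed Ddi2 allele without Cre recombinase. In DDI2-KO mice, labelled DDI2-/-, Cre was driven by the albumin promoter, which is active mainly in hepatocytes. DDI2 is an aspartic protease that cleaves and so activates the transcription factor NRF1, and the comparison asked how its loss alters steady-state liver RNA.

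Interferons are secreted proteins that bind receptors on nearly all cells and act through JAK kinases on STAT transcription factors. Type I interferons drive a complex that holds STAT2 and IRF9 and binds the interferon-stimulated response element (ISRE), and interferon-gamma acts through the gamma-activated site (GAS). Their targets include antiviral proteins and MHC class I, which shows peptides made in the cell to CD8 T cells, while MHC class II shows peptides taken up from outside and is carried mainly by macrophages, dendritic cells and B cells. A low level of this program runs in uninfected tissue.

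The libraries held 22501208 to 34109018 reads on genes, and a level of 3 reads, the limit of detection used here, was 0.0880 to 0.133 CPM (counts relative to library size). Values below are CPM after scaling by the TMM method, and log2 fold changes are DDI2-KO against WT, with standard errors (SE). A gene was called where the quasi-likelihood test of edgeR gave a p under 0.05 after Benjamini-Hochberg adjustment across the 13699 genes tested. By that rule 346 genes (2.53%) were called, of which 164 (1.20%) were lower and 182 (1.33%) higher in DDI2-KO. Ddi2 itself had 141 and 123 CPM in WT against 157 and 164 CPM under the DDI2-KO label (log2 fold change 0.28, SE 0.17, adjusted p = 0.349). The targeted gene was therefore not lower in those libraries, and reads in the deleted part of the gene were not counted apart in the files used here. Every direction below rests on the labels, and DDI2-KO stands throughout for the libraries labelled so. Hepatocyte transcripts (Alb, Apoa1, Ttr, Serpina1a, Cps1 and Fah) summed to 152470 and 177180 CPM in WT and 143040 and 145840 CPM in DDI2-KO. The sum was thus lower in both DDI2-KO libraries. Of the 6 genes 5 were lower and 0 called, where 51.3% of all genes were lower, and the cause was not tested. Reads outside annotated genes were 4.70% to 5.11% of the gene reads in WT and 2.53% to 3.65% in DDI2-KO, and the part of this in the results was not tested.

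The binding sequences that name the program are present upstream of many members. Windows from 250 bases before to 50 bases after the transcription start were given by RefSeq (GRCm38.p6) for 30 of the 38 members, and not for Usp18, Oas2, Mx1, Mx2, Ifi27, Tap2, H2-Ab1 and Cd74. The ISRE core GAAANNGAAA, searched on both strands, was found in 15 of 23 ISGs, in B2m as 1 of 5 class I genes and in 0 of 2 class II genes. Some genes have more than 1 window, and by window it was in 15 of 27 for ISGs (55.6%), 1 of 6 for class I and 0 of 2 for class II. Among all 32851 RefSeq windows 3.44% held it. The palindromic GAS sequence TTCNNNGAA was found in 6 of 23 ISGs (Bst2, Ifi35, Ifit2, Igtp, Irf1 and Oas1a). By window this was 6 of 27 (22.2%), against 8.30% of all windows. The 150 bases upstream of the start are shown for 6 members that the results turn on: Ifit1, Rsad2 and Gbp3, with lower counts in DDI2-KO, Isg15, with nearly equal counts, Bst2, with higher counts, and B2m, the class I gene with the core. Capitals mark ISRE cores, read 5′ to 3′ on the strand of the gene, so that a core on the other strand appears as TTTC repeats.
Ifit1 (chr19:34640739-34640888, + strand): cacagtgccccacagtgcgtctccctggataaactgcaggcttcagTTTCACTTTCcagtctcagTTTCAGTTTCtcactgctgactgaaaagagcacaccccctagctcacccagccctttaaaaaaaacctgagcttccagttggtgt
Rsad2 (chr12:26456453-26456602, - strand): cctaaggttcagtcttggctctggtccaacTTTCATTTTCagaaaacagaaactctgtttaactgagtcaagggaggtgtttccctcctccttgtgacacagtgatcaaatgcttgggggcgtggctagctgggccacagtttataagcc
Gbp3 (chr3:142559894-142560043, + strand): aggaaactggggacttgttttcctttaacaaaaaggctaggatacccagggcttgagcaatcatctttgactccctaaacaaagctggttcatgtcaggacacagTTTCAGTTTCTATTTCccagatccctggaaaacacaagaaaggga
Isg15 (chr4:156200819-156200968, - strand): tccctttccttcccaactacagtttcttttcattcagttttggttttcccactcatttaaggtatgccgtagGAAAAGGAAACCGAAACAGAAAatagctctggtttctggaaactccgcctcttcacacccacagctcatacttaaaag
Bst2 (chr8:71537473-71537622, - strand): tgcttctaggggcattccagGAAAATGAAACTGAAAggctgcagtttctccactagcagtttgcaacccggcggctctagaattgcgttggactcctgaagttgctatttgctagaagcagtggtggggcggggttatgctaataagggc
B2m (chr2:122147537-122147686, + strand): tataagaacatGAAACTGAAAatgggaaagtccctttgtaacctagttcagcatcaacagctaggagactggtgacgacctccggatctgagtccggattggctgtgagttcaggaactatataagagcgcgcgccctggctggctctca

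In Ifit1 the cores began 104 and 85 bases upstream of the start, in Rsad2 120 bases and in Gbp3 45 and 39 bases upstream. Isg15 held 3 overlapping cores beginning 78, 72 and 66 bases upstream, and Bst2 a pair at 130 and 124 bases. A match describes the letters and does not show that a factor binds. The core was present in genes on both sides of the comparison, upstream of Ifit1, Rsad2 and Gbp3 and also upstream of Bst2, Oas1a and Igtp.

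Of the 28 ISGs, all of which passed the filter on low counts, 1 was called, beside 2.53% of all genes. This was Ifit1, which fell with a log2 fold change of -1.01. A further 21 ISGs had negative and 6 had positive log2 fold changes without a call. Both DDI2-KO libraries were below both WT libraries for 15 ISGs (53.6%), against 27.7% of all genes tested, and above for 4 (14.3%), against 28.0%. The median log2 fold change was -0.26, within a range from -1.51 to 0.68, beside -0.01 over all genes. At an unadjusted p under 0.05, 9 ISGs were lower and 2 higher, where 11.5% of all genes were lower and 12.0% higher. The low side was not even across libraries, with a median deviation from each gene's mean, in log2 CPM, of 0.20 and 0.09 in the WT libraries, -0.01 in DDI2-KO library 1 and -0.29 in DDI2-KO library 2. DDI2-KO library 2 was below DDI2-KO library 1 for 22 of the 28, and WT library 2 below WT library 1 for 19.

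**Figure D1:**
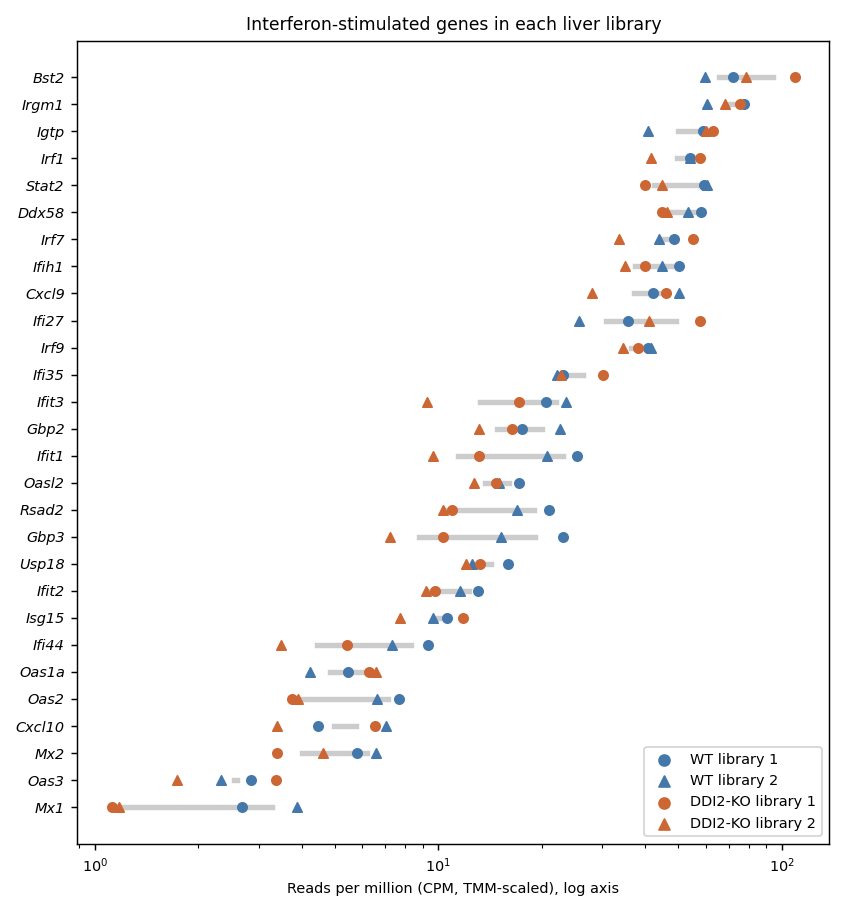
TMM-scaled CPM (log axis) of the 28 interferon-stimulated genes in each of the 4 liver libraries, ordered by mean level; circles are library 1, triangles library 2, and grey bars join the group means. Genes such as Ifit1, Rsad2, Gbp3, Oas2 and Mx1 have both DDI2-KO libraries left of both WT libraries, and Ifi27, Bst2, Oas1a and Igtp have them to the right.

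Ifit1, Ifit2 and Ifit3 encode tetratricopeptide proteins that bind foreign RNA and block its translation. Ifit1 (ENSMUSG00000034459, GRCm38, chromosome 19, 34640871 to 34650009, plus strand) had 25.3 and 20.7 CPM in WT and 13.1 and 9.66 CPM in DDI2-KO. The groups did not overlap, and the log2 fold change was -1.01 (SE 0.21, adjusted p = 0.0489). This call lies close to the threshold: over the 15 alternatives the adjusted p ran from 0.000523 to 0.226, and without WT library 1 it was 0.226, without WT library 2 0.0712 and without DDI2-KO library 2 0.0643. Of the 50-base stretches of Ifit1, 7.14% also occur in its copies Ifit1bl2 and Ifit1bl1. Ifit2 had 13.0 and 11.6 CPM in WT and 9.81 and 9.23 CPM in DDI2-KO (log2 fold change -0.37, SE 0.19, adjusted p = 0.276). Ifit3 had 20.6 and 23.5 CPM in WT and 17.2 and 9.27 CPM in DDI2-KO (log2 fold change -0.73, SE 0.28, adjusted p = 0.177). Both genes had their DDI2-KO libraries below WT, but Ifit3 shares 51.2% of its 50-base stretches with Ifit3b, so its count is uncertain.

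The 2'-5' oligoadenylate synthetases make the second messenger that activates RNase L, and 0 of the 4 measured were called. Oas2 had 7.67 and 6.64 CPM in WT and 3.75 and 3.92 CPM in DDI2-KO (log2 fold change -0.90, SE 0.22, adjusted p = 0.0702). Both DDI2-KO libraries were below WT, by more than the spread within either genotype, although the test did not call it. Oas1a had 5.44 and 4.24 CPM in WT and 6.30 and 6.57 CPM in DDI2-KO (log2 fold change 0.41, SE 0.23, adjusted p = 0.321). Its DDI2-KO libraries were both above WT, but 57.6% of its 50-base stretches recur in Oas1g or Oas1b. Oas3 and Oasl2 had log2 fold changes of -0.02 and -0.23.

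Mx1 and Mx2 are dynamin-like GTPases that trap viral components. Mx1 had the most negative log2 fold change of the 38 members at a low level, with 2.68 and 3.88 CPM in WT and 1.12 and 1.17 CPM in DDI2-KO. In reads this was 90 and 120 against 29 and 27, and the log2 fold change was -1.51 (SE 0.33, adjusted p = 0.0556). C57BL/6 mice carry a defective Mx1 allele, so this transcript makes no working protein in the strain. Mx2 had 5.80 and 6.60 CPM in WT and 3.40 and 4.61 CPM in DDI2-KO (log2 fold change -0.63, SE 0.25, adjusted p = 0.176). Neither gene's groups overlapped.

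Among the other antiviral effectors, Rsad2 (viperin, which makes a chain-terminating nucleotide) had 21.0 and 17.0 CPM in WT and 10.9 and 10.3 CPM in DDI2-KO (log2 fold change -0.84, SE 0.19, adjusted p = 0.0572). Ifi44 had 9.31 and 7.31 CPM in WT and 5.41 and 3.48 CPM in DDI2-KO (log2 fold change -0.90, SE 0.27, adjusted p = 0.105). In both, every DDI2-KO library was below every WT library. Bst2 (tetherin, which holds budding virus at the cell surface) had 71.8 and 59.7 CPM in WT and 109 and 78.8 CPM in DDI2-KO (log2 fold change 0.52, SE 0.20, adjusted p = 0.180). Ifi27, a mitochondrial protein, had 35.8 and 25.7 CPM in WT and 57.7 and 40.9 CPM in DDI2-KO (log2 fold change 0.68, SE 0.23, adjusted p = 0.130). Bst2 and Ifi27 thus stood above WT in both DDI2-KO libraries, highest in library 1, and neither was called. Without DDI2-KO library 1 their log2 fold changes were 0.26 and 0.42, and without DDI2-KO library 2 they were 0.74 and 0.92.

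Isg15, a ubiquitin-like modifier, and Usp18, the protease that removes it and damps type I receptor signalling, showed overlapping groups. Isg15 had 10.6 and 9.65 CPM in WT and 11.8 and 7.75 CPM in DDI2-KO (log2 fold change -0.05, SE 0.24, adjusted p = 0.927). Its DDI2-KO libraries lay on either side of both WT libraries. For Usp18 it was -0.17 (adjusted p = 0.639). The chemokines Cxcl9 and Cxcl10, which draw CXCR3-bearing T cells and are classical targets of interferon-gamma, overlapped as well. Cxcl9 had 42.1 and 50.1 CPM in WT and 46.1 and 28.0 CPM in DDI2-KO, with DDI2-KO library 2 the only low one. Cxcl10 had 4.46 and 7.06 CPM in WT and 6.53 and 3.39 CPM in DDI2-KO, again lowest in DDI2-KO library 2.

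The GTPases induced by interferon-gamma attack the vacuoles of intracellular pathogens, and 0 of the 4 measured were called. Gbp3, a guanylate-binding protein, had 23.1 and 15.2 CPM in WT and 10.4 and 7.22 CPM in DDI2-KO (log2 fold change -1.12, SE 0.26, adjusted p = 0.0660). Gbp2 had 17.5 and 22.6 CPM in WT and 16.4 and 13.1 CPM in DDI2-KO (log2 fold change -0.44, SE 0.20, adjusted p = 0.233). The DDI2-KO libraries of both were below WT. Igtp, an immunity-related GTPase, had 59.1 and 40.8 CPM in WT and 63.0 and 60.1 CPM in DDI2-KO (log2 fold change 0.30, SE 0.20, adjusted p = 0.396). Irgm1, which regulates the other immunity-related GTPases, had 77.7 and 60.6 CPM in WT and 75.6 and 68.1 CPM in DDI2-KO (log2 fold change 0.06, SE 0.18, adjusted p = 0.883). Igtp was above WT in both DDI2-KO libraries but shares 11.8% of its stretches with the overlapping gene Irgm2, and Irgm1 lay inside the WT range in both.

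Of the members that carry or sense the signal, Stat2, a transcription factor of the type I response, had 59.5 and 60.5 CPM in WT and 40.1 and 44.8 CPM in DDI2-KO (log2 fold change -0.50, SE 0.15, adjusted p = 0.109). The WT libraries were nearly equal and both DDI2-KO libraries below them. Irf9, the DNA-binding part of the same complex, had 40.7 and 41.5 CPM in WT and 38.02 and 34.6 CPM in DDI2-KO (log2 fold change -0.18, adjusted p = 0.526). Irf1 and Irf7, which amplify the response, had log2 fold changes of -0.12 and -0.06 with overlapping groups. The RNA sensors Ifih1 (MDA5) and Ddx58 (RIG-I) had log2 fold changes of -0.34 and -0.29, each with both DDI2-KO libraries below WT and no call (adjusted p = 0.244 and 0.279).

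**Figure D2:**
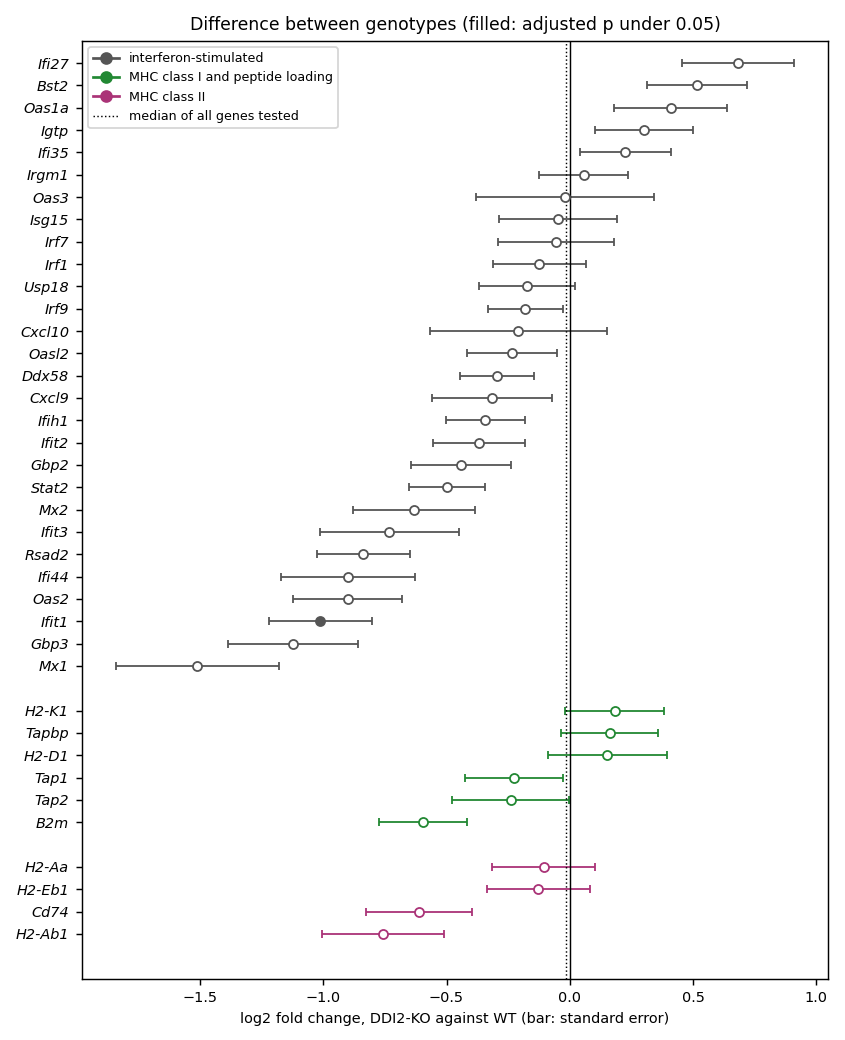
Log2 fold change of the 38 members, DDI2-KO against WT, with bars for the standard error, in 3 groups and ordered by value; the filled point is the gene with an adjusted p under 0.05 and the dotted line the median of all genes tested. Ifit1 at -1.01 is the filled point, while Mx1 at -1.51 and Gbp3 at -1.12 lie lower with wider errors.

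For MHC class I and its peptide loading, 0 of 6 genes were called by edgeR, 1 was lower at an unadjusted p under 0.05, DESeq2 called 1 (B2m) and limma-voom and limma-trend called 0. Of all 13699 genes tested, 2.53% were called by edgeR and 51.3% were lower, 11.5% at an unadjusted p under 0.05. The groups of 6064 overlapped. Of the 6 class I genes, 3 were lower and 3 higher (median -0.04), and the groups of 5 overlapped. B2m (ENSMUSG00000060802), the light chain shared by all class I molecules, was the exception and the most abundant member by length. Its level was 3208 CPM per kilobase of exon in WT and 2125 in DDI2-KO, against 310 and 351 for H2-K1 and 142 and 158 for H2-D1, the classical heavy chains. B2m had 3000 and 2517 CPM in WT and 1757 and 1898 CPM in DDI2-KO (log2 fold change -0.59, SE 0.18, adjusted p = 0.103). The groups did not overlap, and the gap between them was larger than the spread within either.

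H2-K1 had 1036 and 784 CPM in WT and 1118 and 947 CPM in DDI2-KO (log2 fold change 0.18, SE 0.20, adjusted p = 0.636). H2-D1 had 425 and 306 CPM in WT and 481 and 332 CPM in DDI2-KO (log2 fold change 0.15, SE 0.24, adjusted p = 0.747). In both heavy chains library 1 of each genotype was the higher, and the groups overlapped. The ratio of B2m to H2-K1 reads within a library, which no scaling between libraries can alter, was 2.89 and 3.21 in WT and 1.57 and 2.01 in DDI2-KO. The ratio of B2m to H2-D1 was 7.06 and 8.22 in WT and 3.65 and 5.72 in DDI2-KO. Both ratios were lower in each DDI2-KO library than in each WT library. The transcripts differ in GC content, 41.2% for B2m against 54.3% for H2-K1 and 55.9% for H2-D1, and the part of this was not tested. Reads of the heavy chains are uncertain. Of the 50-base stretches, 9.63% in H2-K1 and 12.8% in H2-D1 recur in other class I genes. Alignments that were not unique, left uncounted, came to 47.3% to 65.8% of the gene reads, and a read may count there more than once.

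The transporter that carries peptides into the endoplasmic reticulum is built from Tap1 and Tap2, and tapasin (Tapbp) holds it to class I molecules. Tap1 had 26.7 and 19.7 CPM in WT and 21.3 and 18.4 CPM in DDI2-KO (log2 fold change -0.23, SE 0.20, adjusted p = 0.536). Tap2 had 18.7 and 15.7 CPM in WT and 17.8 and 11.4 CPM in DDI2-KO (log2 fold change -0.24, SE 0.24, adjusted p = 0.588). Tapbp had 77.2 and 64.2 CPM in WT and 90.6 and 67.5 CPM in DDI2-KO (log2 fold change 0.16, SE 0.20, adjusted p = 0.666). All 3 overlapped between genotypes, and library 1 was the higher within each genotype.

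For MHC class II, 0 of 4 genes were called by edgeR, although all 4 had negative log2 fold changes with a median of -0.37, and 2 were lower at an unadjusted p under 0.05. Of all genes 51.3% were lower and 11.5% were lower at that p. DESeq2, limma-voom and limma-trend also called 0. In bulk liver, fewer cells of a type and less RNA per cell cannot be told apart. H2-Ab1 (ENSMUSG00000073421), the beta chain of I-A, had 44.7 and 47.4 CPM in WT and 34.3 and 20.1 CPM in DDI2-KO (log2 fold change -0.76, SE 0.25, adjusted p = 0.126). Cd74, the invariant chain that escorts class II molecules and fills their groove, had 162 and 141 CPM in WT and 118 and 80.5 CPM in DDI2-KO (log2 fold change -0.61, SE 0.21, adjusted p = 0.140). Both were below WT in each DDI2-KO library and lowest in library 2.

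H2-Aa, the alpha chain that pairs with the product of H2-Ab1, had 66.2 and 65.6 CPM in WT and 73.6 and 48.9 CPM in DDI2-KO (log2 fold change -0.11, SE 0.21, adjusted p = 0.797). H2-Eb1, the beta chain of I-E, had 29.6 and 32.5 CPM in WT and 33.8 and 23.02 CPM in DDI2-KO (log2 fold change -0.13, SE 0.21, adjusted p = 0.754). C57BL/6 mice lack a working I-E alpha chain, so H2-Eb1 has no partner there. For both genes the DDI2-KO libraries enclosed the WT libraries, and library 2 was below library 1 in all 4 class II genes, with a median difference of -0.57 in log2 CPM. Without DDI2-KO library 1 the class II median was -0.67 and H2-Ab1 was called, and without DDI2-KO library 2 the median was -0.11.

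Ratios within a library separated the class II genes in the same way. H2-Ab1 reads were 0.675 and 0.722 of H2-Aa reads in WT and 0.467 and 0.411 in DDI2-KO. Cd74 reads were 2.45 and 2.15 times H2-Aa reads in WT and 1.60 and 1.65 times in DDI2-KO. H2-Eb1 reads stayed near a constant share of H2-Aa reads, 0.447 and 0.496 in WT and 0.460 and 0.471 in DDI2-KO. H2-Ab1 and Cd74 were thus lower relative to H2-Aa in each DDI2-KO library, and the genotypes overlapped for H2-Eb1. The GC content was 57.3% for H2-Ab1, 56.6% for Cd74, 51.8% for H2-Eb1 and 46.5% for H2-Aa. The part of this in the ratios was not tested.

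**Figure D3:**
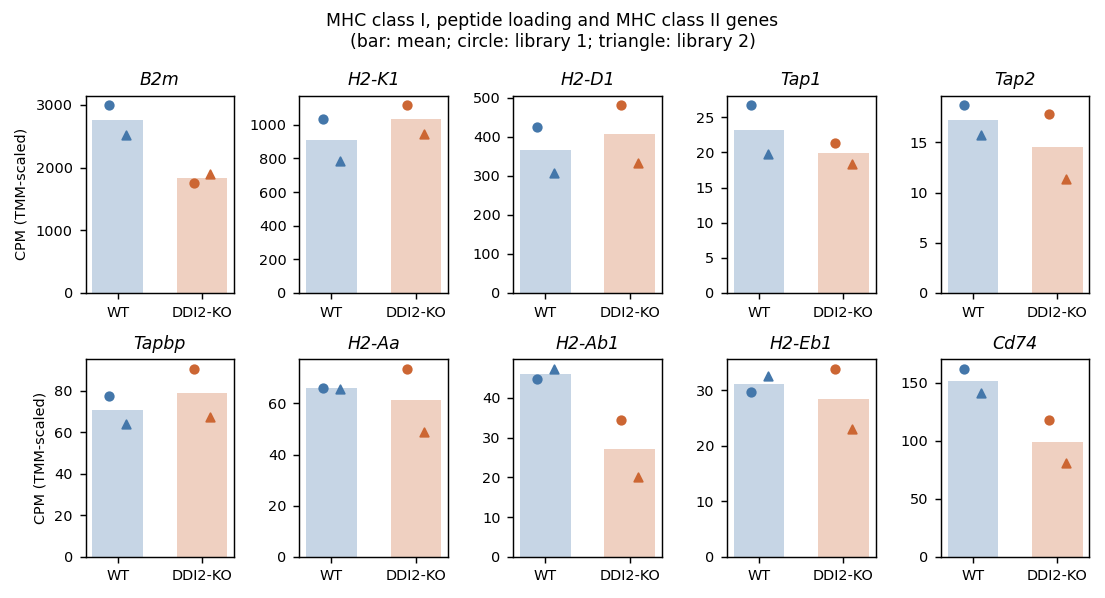
TMM-scaled CPM of the 6 class I and peptide loading genes and the 4 class II genes in WT and DDI2-KO livers; bars are means of 2 libraries, circles library 1 and triangles library 2, and each axis starts at 0. B2m, H2-Ab1 and Cd74 have both DDI2-KO points below both WT points, and the points of the other 7 genes overlap.

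Markers of the cells that carry class II were measured beside these genes, and the defining ones were detected. Kupffer cell and macrophage markers had 0 of 11 genes called and summed to 1023 and 867 CPM in WT and 1090 and 889 CPM in DDI2-KO. B cell and plasma cell markers had 0 of 6 called and summed to 22.01 and 36.4 CPM in WT and 44.9 and 45.1 CPM in DDI2-KO. Dendritic cell markers had 0 of 7 called and summed to 6.51 and 7.90 CPM in WT and 5.95 and 6.01 CPM in DDI2-KO. The macrophage sum thus overlapped between genotypes, while the B cell sum was higher and the dendritic cell sum lower in both DDI2-KO libraries, each through 1 gene. Without Clec9a the dendritic cell sum was 3.75 and 4.69 CPM in WT and 4.98 and 4.53 CPM in DDI2-KO, and 4 of the 7 markers had positive log2 fold changes. Without Ighm the B cell sum was 10.02 and 15.5 CPM in WT and 11.05 and 14.3 CPM in DDI2-KO, and 3 of the 6 were higher, so both sums then overlapped. At an unadjusted p under 0.05 the macrophage genes C1qa, C1qb and Cd68 were lower and Adgre1 higher, the dendritic cell gene Clec9a was lower (log2 fold change -1.29, adjusted p = 0.0764) and the B cell gene Ighm higher. Over all genes 11.5% were lower and 12.0% higher at that p, and 2.53% were called. The part of macrophages, dendritic cells and B cells in the class II values was not tested. T and NK cell markers (0 of 10 called) summed to 9.53 to 10.9 CPM, and monocyte and neutrophil markers (0 of 5 tested called, with Ly6g at 0 reads in every library) to 8.05 to 10.4 CPM. Sinusoidal endothelium markers had 1 of 7 called, Stab2, a scavenger receptor that was lower in DDI2-KO (log2 fold change -1.10, adjusted p = 0.0288). Of the 7 markers 3 were lower and 4 higher (Clec4g, Pecam1, Kdr and Fcgr2b). Their sum was 516 and 473 CPM in WT and 478 and 470 CPM in DDI2-KO, and the genotypes overlapped. Biliary and stellate cell markers had 0 of 5 called each. The biliary sum was 56.4 and 52.8 CPM in WT and 70.4 and 68.7 CPM in DDI2-KO, with 4 of 5 markers higher. The stellate sum was 161.5 and 178 CPM in WT and 155 and 146 CPM in DDI2-KO, with all 5 markers lower. Of all genes 51.3% were lower. Neither sum overlapped between genotypes, and the cause was not tested.

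The genes upstream of the program gave no call. Of 21 interferon genes, 20 had 0 reads in every library, and Ifng showed 1 and 1 reads in WT against 1 and 0 in DDI2-KO, all under the limit of 3 reads. Of 6 receptor genes 5 were tested and 0 called by edgeR, with 0 at an unadjusted p under 0.05 in either direction. Ifnar1, a type I receptor chain, had 41.6 and 38.9 CPM in WT and 48.0 and 45.5 CPM in DDI2-KO (log2 fold change 0.21). Ifnar2, its partner, had 43.3 and 38.2 CPM in WT and 40.1 and 30.98 CPM in DDI2-KO (log2 fold change -0.20). Ifnar1 was above WT in both DDI2-KO libraries and Ifnar2 overlapped. The interferon-gamma receptor chain Ifngr1 had 28.3 and 34.4 CPM in WT and 36.5 and 38.7 CPM in DDI2-KO (log2 fold change 0.26), and stood above WT. The other chain, Ifngr2, had 26.9 and 22.5 CPM in WT and 26.3 and 21.5 CPM in DDI2-KO (log2 fold change -0.05), with the groups overlapping.

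Of 9 further JAK, STAT and IRF genes 8 were lower, and 0 were called by edgeR, with 1 at an unadjusted p under 0.05, Irf5 (log2 fold change -1.09, adjusted p = 0.0556). In nucleic acid sensing 0 of 12 genes were called by edgeR, with Mb21d1, Tlr3 and Ikbke lower at an unadjusted p under 0.05. Among negative regulators 0 of 4 tested were called, with Socs3 higher at an unadjusted p under 0.05. Over all genes, beside these lists and the receptors, 51.3% were lower and 2.53% were called. At an unadjusted p under 0.05, 11.5% of all genes were lower and 12.0% higher.

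A longer list of 49 other ISGs, of which 48 were tested, had 36 genes lower and 12 higher, with a median log2 fold change of -0.24. The DDI2-KO libraries were both below WT for 23 and both above for 7, where 27.7% and 28.0% of all genes did so and 51.3% of all genes were lower. By edgeR 3 fell and 0 rose, beside 14 lower and 3 higher at an unadjusted p under 0.05, where the shares over all genes were 1.20% and 1.33% called and 11.5% and 12.0% at an unadjusted p. Ifi203, a DNA-binding PYHIN family gene, fell from 24.8 and 19.3 CPM to 10.2 and 9.83 CPM (log2 fold change -1.14, SE 0.19, adjusted p = 0.0338). Tgtp1, an immunity-related GTPase, fell from 11.6 and 8.77 CPM to 3.86 and 2.13 CPM (log2 fold change -1.76, SE 0.31, adjusted p = 0.0404). Gbp4, a guanylate-binding protein, fell from 10.6 and 10.6 CPM to 4.598 and 5.13 CPM (log2 fold change -1.13, SE 0.20, adjusted p = 0.0404). The groups of all 3 stood apart, but without WT library 1 none was called (adjusted p = 0.149, 0.102 and 0.127), and Gbp4 was not called without WT library 2 (0.0988) or DDI2-KO library 1 (0.0553) either. Over all 16 fits Ifi203 was called in 13, Tgtp1 in 12 and Gbp4 in 11.

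Of 21 other class I genes 12 were higher and 9 lower, with a median of 0.08, and 1 was called. At an unadjusted p under 0.05, 2 were lower and 1 higher. Of all genes 2.53% were called, and 11.5% were lower and 12.0% higher at that p. Psme2, a subunit of the proteasome activator PA28 that interferon-gamma induces, rose from 34.2 and 36.2 CPM to 66.4 and 56.5 CPM (log2 fold change 0.80, SE 0.16, adjusted p = 0.0467). Its adjusted p was 0.234 without WT library 1, 0.156 without WT library 2 and 0.0579 without DDI2-KO library 1, and it was called in 8 of the 16 fits. Nlrc5, the transactivator of class I genes, had 26.1 and 21.6 CPM in WT and 15.1 and 13.7 CPM in DDI2-KO (log2 fold change -0.73, SE 0.18, adjusted p = 0.0696). Nlrc5 was lower in both DDI2-KO libraries while H2-K1 and H2-D1 overlapped. Calr, the other class I gene lower at an unadjusted p, had 892 and 916 CPM in WT and 608 and 525 CPM in DDI2-KO (log2 fold change -0.67, SE 0.18, adjusted p = 0.0764). Of 12 other class II genes 11 were tested, 7 lower and 0 called by edgeR, with Rfx5 alone lower at an unadjusted p under 0.05 and a median of -0.27. Ciita, the transactivator of class II genes, showed 88 and 91 reads in WT against 82 and 31 in DDI2-KO (log2 fold change -0.29, adjusted p = 0.707), with DDI2-KO library 2 alone low.

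**Figure D4:**
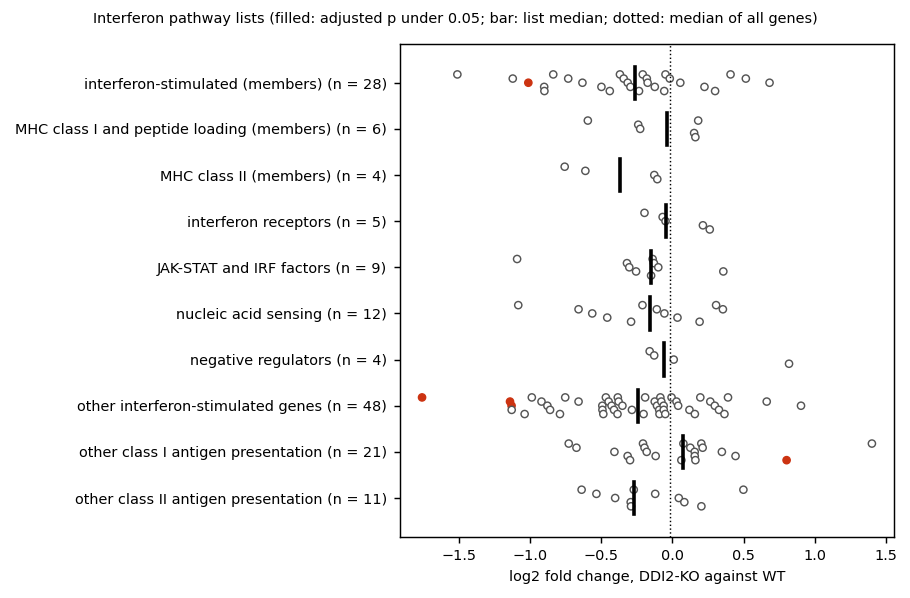
Log2 fold changes, DDI2-KO against WT, of the members by group and of the tested genes of 7 further lists of the interferon pathway; each point is a gene, filled where the adjusted p is under 0.05, black bars are list medians and the dotted line is the median of all genes. The medians of the members' ISGs (-0.26) and of the other ISGs (-0.24) lie left of the dotted line, and the other class I genes (0.08) right of it.

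Among the ISGs, direction moved with the length and base composition of the transcript. Spearman's correlation of the log2 fold change over the 28 genes was -0.464 with the length of the longest transcript and 0.604 with its GC content. These are across genes of the same 4 libraries, which share depth and preparation, and over 13675 genes the values were -0.123 and 0.0489. The 15 ISGs below WT had a median length of 3818 bases (1745 to 5470), and the 4 above WT (Oas1a, Bst2, Ifi27 and Igtp) had 1431 bases (792 to 2022). Each of the 4 was shorter than all of the 15 but Ifit3. Some members went the other way in length, since B2m, at 860 bases, and H2-Ab1, at 1212 bases, were low in DDI2-KO. In GC content H2-Ab1, at 57.3%, went the other way too, but B2m, at 41.2%, did not. The DDI2-KO libraries also differed from each other by composition, with a correlation of -0.483 between GC content and library 2 minus library 1 over all genes, against 0.0684 for WT, and of -0.064 over the ISGs. The part of length and composition in the results was not tested beyond the fit that follows.

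**Figure D5:**
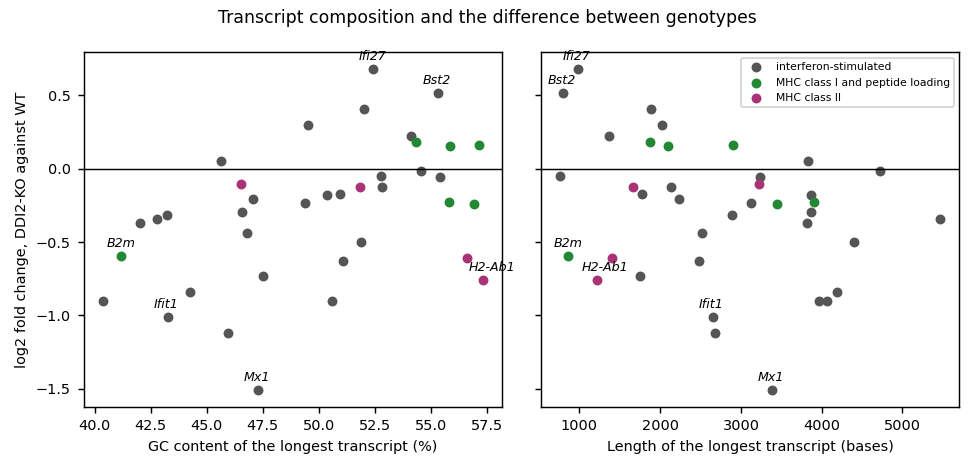
Log2 fold change of the 38 members, DDI2-KO against WT, by GC content (left) and length (right) of the longest annotated transcript; each point is a gene, coloured by group. ISGs of low GC content such as Ifit1 lie low and the short, GC-rich Bst2 and Ifi27 high. H2-Ab1 lies low although short and GC-rich, and B2m lies low although short, at a low GC content.

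With offsets for GC content and length in the fit, an alternative chosen after seeing the data, the median of the ISGs was -0.32 and 4 of them were called (Ifit1, Oas2, Mx1 and Rsad2). Calls over all genes rose as well, from 346 (2.53%) to 843 (6.15%). Ifit1 had a log2 fold change of -1.01 there (adjusted p = 0.0438), Mx1 of -1.62 (adjusted p = 0.0310), and Oas2 and Rsad2 had adjusted p = 0.0336 and 0.0371. The positive values of Bst2 (0.48) and Ifi27 (0.55) remained without a call. H2-Ab1 (-0.76, adjusted p = 0.0413) was called in that fit and B2m (-0.47, adjusted p = 0.129) was not. The class II median was -0.47 and the class I median -0.09.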

How the data were processed

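Liver mRNA libraries were made with a stranded kit, and the submitters' processing notes name cutadapt 1.8, STAR 2.5.2b, HTSeq 0.6.1 and GRCm38. Raw read counts for 48709 Ensembl genes per library were deposited, and the authors applied no normalization to them. The 5 summary lines were left out, and the strand setting of the counting is not given in the sources used here. Symbols came from GENCODE (48349 of the identifiers). From 22501208 to 34109018 reads on genes were counted per library, and the 2 mice per group limit precision more than depth does.

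Genotypes were compared with edgeR 4.0.16 in R 4.3.3 (TMM factors, filterByExpr, robust glmQLFit, glmQLFTest), with Benjamini-Hochberg adjustment over all genes tested. The paper used limma's moderated test, run here (limma 3.58.1) as an alternative. The effects of 14 other settings, with limma and DESeq2 1.42.0 among them, and 1 chosen after seeing the data are given below. The members and lists were chosen with earlier results of these data known, so no list was tested as a set. Genes named with values in each library were called genes, all class I and class II members, the 4 highest and 4 lowest ISGs by log2 fold change, the 3 most abundant ISGs, called genes of the other lists and Ifnar1, Ifnar2, Ifngr1, Ifngr2, Nlrc5, Ciita, Ifng and Ddi2. One further gene of this rule is not reported here. Ifit2, Ifit3, Mx2, Rsad2, Ifi44, Isg15, Usp18, Cxcl9, Cxcl10, Gbp2, Stat2, Irf9, Irf5, Clec9a, Stab2, the genes named at an unadjusted p and the members given only by their fold change were named after their values were seen. Counts of the 2 libraries of a genotype differed beyond counting error (chi-square over its degrees of freedom was 64.7 in WT and 34.8 in DDI2-KO), and each library was 1 replicate. The sources pair no WT with a DDI2-KO mouse.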

Additional observations from a re-analysis of the deposited data

How the results depend on the processing

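With 2 libraries per group, calls depended on the setting. Of 570 values of the 38 members under the 15 alternatives, 514 kept their direction and side of the threshold, 26 newly passed it, 8 no longer passed it, all of Ifit1, and 22 changed sign. The number of genes called, 346 in all, was 932 with DESeq2, 136 with limma-voom, 139 with limma-trend, 1544 with no filter on low counts, 152 without robust estimation and 843 under the GC and length offsets, and 153 to 631 when each library was left out (153 without WT library 1, 203 without WT library 2, 631 without DDI2-KO library 2). Upper-quartile factors gave 191 lower and 126 higher, and library totals 148 lower and 230 higher, against 164 and 182. Of ISGs, where 1 was called above, 4 were called with DESeq2 and 4 with the offsets, 7 with no filter, 0 with library totals, limma-voom, limma-trend, a mean of at least 1 CPM or no robust estimation, and 0 to 2 when each library was left out (2 without DDI2-KO library 1, 0 without WT library 1 or without DDI2-KO library 2). The ISG median stayed negative in all settings, -0.42 to -0.11. DESeq2 called 1 class I gene, and the class I median was 0.0103 with library totals and -0.24 to 0.18 with each library left out, positive without WT library 1 (0.16) or DDI2-KO library 2 (0.18). Of class II genes 2 were called with no filter and 1 with the offsets, and 0 to 1 with each library left out, where the median ran from -0.67 to -0.11. Oas3 turned to 0.0279 with library totals. With each library left out, the log2 fold change ran from -0.38 to 0.23 for Isg15, -0.34 to 0.0144 for Usp18, -0.57 to 0.38 for Oas3, -0.38 to 0.10 for Irf1, -0.46 to 0.26 for Irf7, -0.11 to 0.25 for Irgm1, -0.72 to 0.00971 for Cxcl9, -0.76 to 0.19 for Cxcl10, -0.00593 to 0.40 for H2-K1, -0.14 to 0.41 for H2-D1, -0.43 to 0.0113 for Tap1, -0.60 to 0.0543 for Tap2, -0.062 to 0.37 for Tapbp, -0.43 to 0.17 for H2-Aa, -0.43 to 0.13 for H2-Eb1, -0.20 to 0.10 for Ifngr2 and -1.04 to 0.20 for Ciita. The cause of these shifts was not tested. As to pairing, deviations of same-numbered libraries from their group means had a correlation of 0.0588, and with a replicate block 1108 genes, 7 ISGs, 0 class I genes and 1 class II gene were called.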
